A study of Aspergillus nidulans and Aspergillus wentii with 48 samples.

Results

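ASPWEDRAFT_101237, ASPWEDRAFT_101893 and ASPWEDRAFT_104176 are 3 genes of the osmophilic mould *Aspergillus wentii* annotated as NADP-coupled glycerol dehydrogenases. They were taken by identifier from the 12659 *A. wentii* genes in the count table. They are 3 of 15 *A. wentii* genes listed as co-orthologues of the *A. nidulans* genes AN1274, AN7193 and AN11030, so they are members of a larger family and not its whole. Each of the 3 had reads in all 24 *A. wentii* libraries and passed the filter on low counts, as did 11094 genes of the table.

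Glycerol is the main compatible solute that many fungi accumulate when the surrounding water activity falls. In one route, glycerol 3-phosphate dehydrogenase (GfdA, and in *A. nidulans* also GfdB) reduces dihydroxyacetone phosphate and a phosphatase then releases glycerol. In the other, dihydroxyacetone is reduced to glycerol by an NADP-dependent glycerol dehydrogenase, the activity assigned to these genes. Enzymes of this kind belong to the aldo-keto reductases and often accept other sugars and aldehydes, so that the reaction each member carries out in *A. wentii* is known only by homology.

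RNA was sequenced from submerged cultures of 2 *A. wentii* strains. CBS141173 is the wild type, which lacks *gfdB*, and ′c *gfdB* is the same strain carrying 1 copy of the *A. nidulans gfdB* gene under its own promoter and terminator, together with a hygromycin resistance marker. Cultures grown for 65 h were left untreated or were given 2 M sorbitol, 1 M NaCl or both (NaCl + sorbitol), and were sampled 0.5 h later, with 3 libraries in each of the 8 groups, described as biological replicates. The question for these genes was whether their transcripts responded to each osmolyte and whether the response differed in the strain that carries *An-gfdB*. That transgene is not among the counted *A. wentii* genes, so the genotype of the ′c *gfdB* libraries was not checked here from reads, and the strain differences hold for the transformant that was sequenced.

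Library totals ranged from 11758085 to 32274107 reads assigned to genes. Replicates agreed least among the CBS141173 sorbitol and the ′c *gfdB* NaCl libraries. Their mean Pearson r of log2 CPM across genes was 0.948 and 0.932, against 0.977 to 0.990 in the other 6 groups. CPM are counts scaled to the library total adjusted by TMM factors. Levels are given as RPKM (reads scaled to gene length and to the total of the library), a scale on which different genes can be compared. Differences are log2 fold changes of the counts from edgeR's quasi-likelihood test, with the standard error (SE) and the Benjamini-Hochberg adjusted p over all 11094 genes. The words rose and fell are used for an adjusted p under 0.05. These are bulk cultures, in which fewer cells that use a gene and less RNA per cell cannot be told apart.

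The 3 genes differed widely in level. ASPWEDRAFT_101893 had a mean of 955 RPKM over the 24 libraries, and 1.41% of all genes were higher. ASPWEDRAFT_101237 averaged 14.3 RPKM and ASPWEDRAFT_104176 averaged 11.3 RPKM, and 46.5% and 50.5% of all genes were higher than these. The reads behind a value ranged from 7543 to 32897 per library for ASPWEDRAFT_101893 and from 63 to 837 for ASPWEDRAFT_101237. For ASPWEDRAFT_104176 they ranged from 19 to 922, so that its low values carry the largest counting error of the 3. How reads that match more than 1 gene were treated is not given in the sources used here, and near-identical copies within the family would make the split of reads among them uncertain.

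ASPWEDRAFT_104176 (930 bases in the count table) had the largest changes of the 3 genes with either osmolyte alone in CBS141173 and with NaCl in ′c *gfdB*. In untreated CBS141173 its 3 libraries had 3.00, 3.32 and 2.54 RPKM. With sorbitol they had 20.2, 38.1 and 45.2 RPKM, and with NaCl 34.8, 20.9 and 28.4 RPKM. All 6 libraries with a single osmolyte lay far above all 3 untreated ones. With NaCl + sorbitol the libraries had 3.49, 3.20 and 4.57 RPKM, which overlapped the untreated range. In group means, sorbitol raised the level 11.7-fold from 2.95 ± 0.393 to 34.5 ± 12.9 RPKM and NaCl raised it 9.49-fold to 28.05 ± 6.99 RPKM (SD, n = 3 each), whereas the combination stood at 3.75 ± 0.722 RPKM.

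In ′c *gfdB* the change of the same gene passed the threshold with NaCl only. That the other treatments left it unchanged does not follow from this. Its untreated libraries had 2.56, 3.505 and 2.98 RPKM and overlapped those of the wild type. The sorbitol libraries had 3.11, 3.84 and 4.70 RPKM and overlapped the untreated ones, while the NaCl libraries had 19.3, 6.67 and 10.9 RPKM, all above them. With NaCl + sorbitol it had 1.61, 1.91 and 1.92 RPKM, below every other *A. wentii* library. These last 3 values rest on 19 to 23 reads each. The 3 NaCl libraries were the most scattered of this gene's groups, with an SD of 52.1% of the mean.

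**Figure D1:**
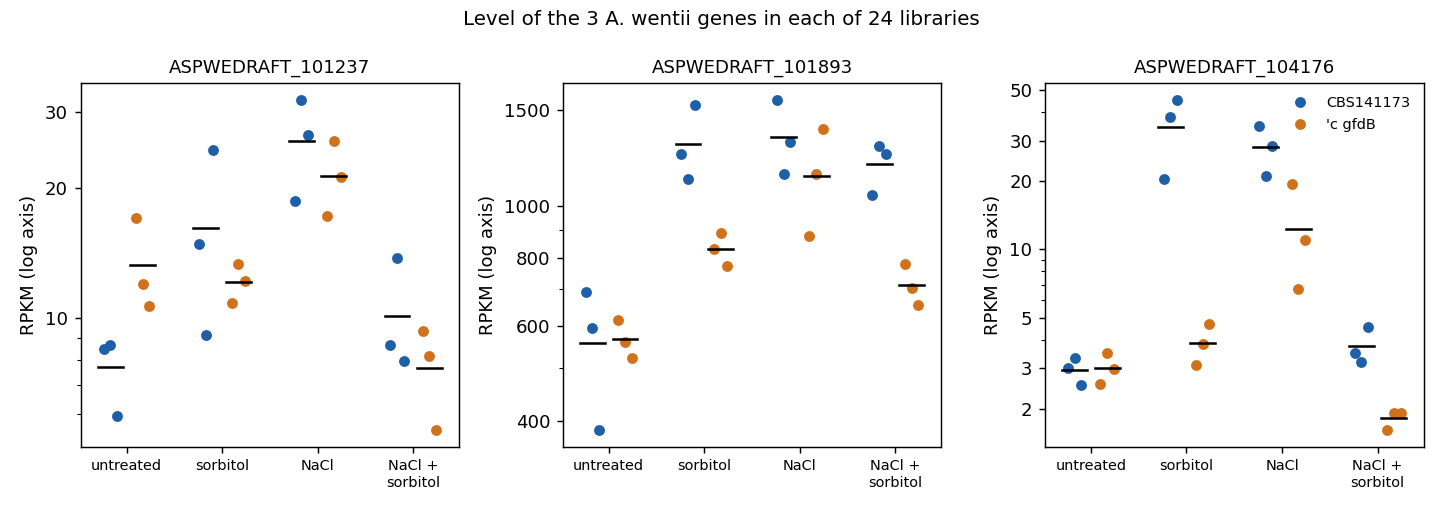
RPKM (log axis) of ASPWEDRAFT_101237, ASPWEDRAFT_101893 and ASPWEDRAFT_104176 in each *A. wentii* library, by treatment, with CBS141173 in blue and ′c *gfdB* in orange. Each point is a library and each bar a group mean of 3; in the right panel the CBS141173 sorbitol libraries (20.2 to 45.2 RPKM) stand apart from the ′c *gfdB* sorbitol libraries (3.11 to 4.70 RPKM).

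The fit gave the same picture. In CBS141173, ASPWEDRAFT_104176 rose by 3.38 (log2, SE 0.32) with sorbitol and by 3.19 (SE 0.32) with NaCl, with adjusted p of 2.52e-07 and 1.5e-07 in edgeR's quasi-likelihood test. The sorbitol change was number 240 in size, in either direction, among the 11094 genes and the NaCl change number 485. The combination gave 0.36 (SE 0.31), with an adjusted p of 0.395 in the same edgeR test. In ′c *gfdB* NaCl raised the gene by 1.97 (SE 0.31, edgeR adjusted p = 4.95e-05), whereas sorbitol gave 0.37 (edgeR adjusted p = 0.366) and the combination -0.61 (edgeR adjusted p = 0.162).

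ASPWEDRAFT_101893 (978 bases), the abundant member, responded more evenly. In CBS141173 its libraries had 691, 594 and 384 RPKM untreated, 1243, 1121 and 1534 RPKM with sorbitol, and 1568, 1143 and 1310 RPKM with NaCl. With NaCl + sorbitol they had 1048, 1290 and 1246 RPKM. All 9 treated libraries exceeded all 3 untreated ones, and the 3 treated groups overlapped each other. The group means were 557 ± 157, 1299 ± 212, 1340 ± 214.3 and 1195 ± 129.1 RPKM (SD, n = 3 each), and the 3 treatments raised the level by 2.33-fold, 2.41-fold and 2.15-fold.

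In ′c *gfdB* the untreated libraries of ASPWEDRAFT_101893 had 613, 560 and 524 RPKM. The sorbitol libraries had 830, 892 and 774 RPKM, the NaCl libraries 879, 1144 and 1384 RPKM, and the NaCl + sorbitol libraries 779, 705 and 656 RPKM. Each treated group lay above the untreated libraries without overlap, but the means were 1.47, 2.01 and 1.26 times the untreated mean. The sorbitol and NaCl + sorbitol libraries of this strain lay below every treated CBS141173 library.

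For ASPWEDRAFT_101893 the log2 changes in CBS141173 were 1.07 (SE 0.23) with sorbitol, 1.22 (SE 0.23) with NaCl and 1.12 (SE 0.23) with both, with edgeR adjusted p of 0.00102, 0.000212 and 0.00144. In ′c *gfdB* it rose with NaCl, by 1.01 (SE 0.23, edgeR adjusted p = 0.00154). Sorbitol gave 0.56 (95% interval 0.08 to 1.04, edgeR adjusted p = 0.0613) and the combination 0.46 (95% interval -0.02 to 0.93, edgeR adjusted p = 0.129). The sorbitol value lay close to the threshold and passed it in DESeq2, with RLE factors, with library totals and with only the compared groups in the fit.

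ASPWEDRAFT_101237 (975 bases) was a gene of moderate level whose response to NaCl was clearer than that to sorbitol. In CBS141173 its libraries had 8.49, 8.65 and 5.95 RPKM untreated and 18.7, 32 and 26.5 RPKM with NaCl, with no overlap. The sorbitol libraries had 14.9, 9.12 and 24.5 RPKM, so that the second of them lay just above the untreated range. That small margin depends on the scaling, as TMM factors were 1.11 for this library and 0.997 for the second untreated one. The NaCl + sorbitol libraries had 8.65, 13.8 and 7.97 RPKM and overlapped the untreated range. The means were 7.69 ± 1.52, 16.2 ± 7.77, 25.7 ± 6.68 and 10.1 ± 3.17 RPKM for untreated, sorbitol, NaCl and the combination (SD, n = 3 each).

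In ′c *gfdB* no change of ASPWEDRAFT_101237 with a treatment passed. The untreated libraries had 17.1, 12 and 10.7 RPKM, all above those of untreated CBS141173. The sorbitol libraries had 10.8, 13.3 and 12.2 RPKM, the NaCl libraries 17.2, 25.7 and 21.2 RPKM and the NaCl + sorbitol libraries 9.35, 8.18 and 5.50 RPKM. On the RPKM scale the NaCl libraries lay above the untreated ones, by a margin of less than 1 SD of either group, and the NaCl + sorbitol libraries lay below them. RPKM does not include TMM factors, which were 1.13 for the first NaCl library and 0.969 for the first untreated one. The separation of the NaCl from the untreated libraries therefore depends on the scaling.

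By edgeR's quasi-likelihood test ASPWEDRAFT_101237 rose with NaCl in CBS141173, by 1.70 (SE 0.33, adjusted p = 0.000274), and with sorbitol, by 0.91 (SE 0.33, adjusted p = 0.0305). The sorbitol call was not stable: without the third sorbitol library the change was 0.52 (edgeR adjusted p = 0.246), it was also lost without the first or the third untreated library, and with only the compared groups in the fit it was 0.96 with an edgeR adjusted p of 0.102. The combination gave 0.41 (edgeR adjusted p = 0.347). In ′c *gfdB* the values were -0.13 with sorbitol, 0.68 with NaCl and -0.67 with the combination (edgeR adjusted p = 0.783, 0.0925 and 0.124).

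Counted together, 3 of 3 members rose in CBS141173 with sorbitol, where 22.1% of all genes tested rose, and 3 of 3 rose with NaCl, where 24.9% rose. With NaCl + sorbitol 1 of 3 rose (ASPWEDRAFT_101893) against 15% of all genes. In ′c *gfdB* 2 of 3 rose with NaCl against 25.7% of all genes. None of the 3 passed with sorbitol in ′c *gfdB* (17.3% of genes rose) or with the combination (16.1% rose) in edgeR. With sorbitol 1 of the 3 had an unadjusted p under 0.05 and 1 passed in DESeq2, while with the combination these counts were 0 and 0.

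**Figure D2:**
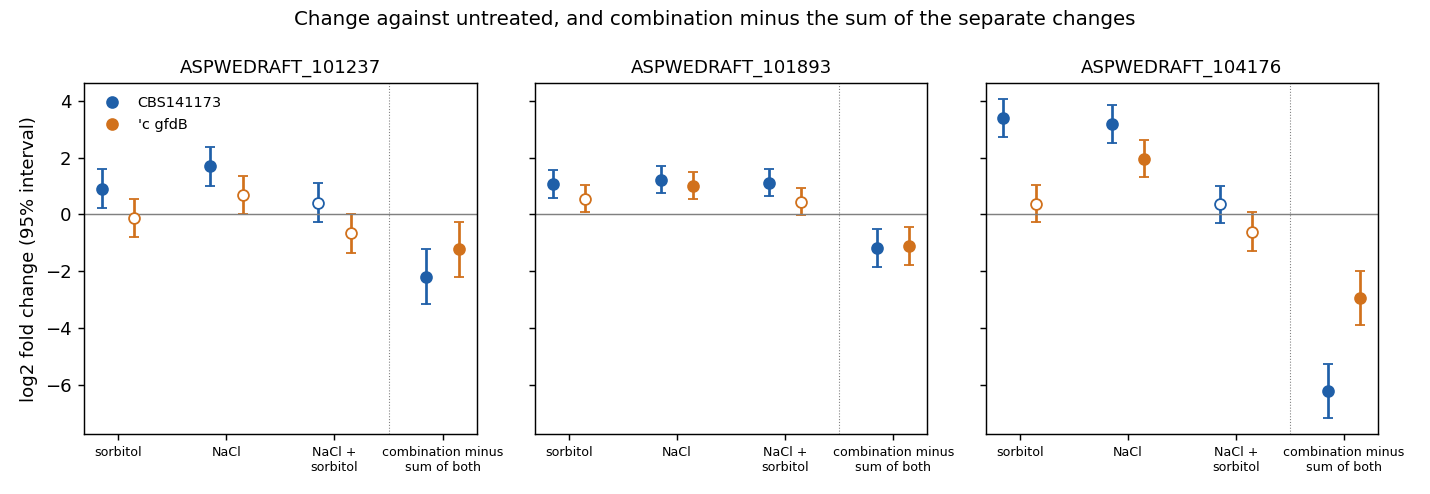
log2 fold change with its 95% interval for ASPWEDRAFT_101237, ASPWEDRAFT_101893 and ASPWEDRAFT_104176 in CBS141173 (blue) and ′c *gfdB* (orange), with filled points for an adjusted p under 0.05. The first 3 positions are treatments against untreated and the fourth is the combination minus the sum of both separate changes, which lay below 0 for every gene in both strains and reached -6.22 for ASPWEDRAFT_104176 in CBS141173.

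The strains were then compared within each condition. With sorbitol ASPWEDRAFT_104176 was lower in ′c *gfdB* by 2.94 on the log2 scale (-2.94, SE 0.32, edgeR adjusted p = 1.3e-05), and its mean there was 0.112 of that in CBS141173. With NaCl it was also lower, with -1.16 (SE 0.30, edgeR adjusted p = 0.00912), although with only the 2 compared groups in the fit the edgeR adjusted p was 0.154. These were the only member differences between the strains that passed in edgeR. They were 1 of 3 members with sorbitol and 1 of 3 with NaCl, where 21.5% and 9.28% of all genes tested were lower in ′c *gfdB*.

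No member passed between the untreated strains, where 8.85% of all genes were higher and 13.2% lower in ′c *gfdB*. ASPWEDRAFT_101237 was nearest, at 0.83 (SE 0.33, edgeR adjusted p = 0.0768). It was the 1 member with an unadjusted p under 0.05, and the 1 that passed in DESeq2. The differences of ASPWEDRAFT_101893 and ASPWEDRAFT_104176 between the untreated strains were 0.07 (95% interval -0.41 to 0.54) and 0.07 (95% interval -0.58 to 0.72). With NaCl + sorbitol 0 of 3 passed in edgeR, against 8.64% of all genes lower in ′c *gfdB*, while 2 had an unadjusted p under 0.05 and 0 passed in DESeq2. These 2 were ASPWEDRAFT_104176 at -0.90 (edgeR adjusted p = 0.0734) and ASPWEDRAFT_101893 at -0.59 (edgeR adjusted p = 0.0885), and for both genes the libraries of the 2 strains did not overlap in this condition.

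The difference between the strains' responses was tested directly as an interaction. For sorbitol the response of ASPWEDRAFT_104176 in ′c *gfdB* was smaller than in CBS141173 by 3.01 on the log2 scale (-3.01, SE 0.44, 95% interval -3.93 to -2.09, edgeR adjusted p = 0.000392), number 200 in size among the 11094 genes. It was the 1 member of 3 to pass, where 5.82% of all genes had a lower sorbitol response in ′c *gfdB*. The value ranged from -3.26 to -2.80 over the 18 alternatives and passed in each of them, including those without any 1 of the 3 scattered CBS141173 sorbitol libraries. The sorbitol interaction of ASPWEDRAFT_101237 was -1.04 (95% interval -2.0 to -0.08, edgeR adjusted p = 0.151) and that of ASPWEDRAFT_101893 was -0.51 (95% interval -1.19 to 0.16, edgeR adjusted p = 0.316).

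For NaCl no interaction of a member passed in edgeR, against 3.53% of all genes lower, though 2 members had an unadjusted p under 0.05 and 1 passed in DESeq2. ASPWEDRAFT_104176 had -1.23 (SE 0.43, edgeR adjusted p = 0.069). Without the first ′c *gfdB* NaCl library, the highest of the 3 for this gene, it was -1.57 with an edgeR adjusted p of 0.0245. ASPWEDRAFT_101237 had -1.02 and ASPWEDRAFT_101893 -0.21 (edgeR adjusted p = 0.16 and 0.726). For the combination 0 of 3 passed in edgeR against 1.03% of all genes lower, 2 had an unadjusted p under 0.05 and 0 passed in DESeq2. All 9 interaction values of the members were negative, but they share the untreated libraries and 8 of them did not pass.

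The combination of both osmolytes was compared with each osmolyte alone. In CBS141173 ASPWEDRAFT_104176 was lower with NaCl + sorbitol than with sorbitol (-3.03, edgeR adjusted p = 9.9e-07) and than with NaCl (-2.84, edgeR adjusted p = 7.11e-07). ASPWEDRAFT_101237 was lower than with NaCl (-1.28, edgeR adjusted p = 0.0031), while its difference from sorbitol was -0.50 (edgeR adjusted p = 0.238). The abundant ASPWEDRAFT_101893 differed by -0.11 from NaCl and by 0.04 from sorbitol (edgeR adjusted p = 0.715 and 0.9), with 95% intervals of -0.58 to 0.37 and -0.43 to 0.52. Thus 2 of 3 members fell against NaCl, where 24.1% of all genes fell, and 1 of 3 against sorbitol, where 19.6% fell.

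In ′c *gfdB* 3 of 3 members were lower with NaCl + sorbitol than with NaCl, where 28% of all genes were lower. The values were -2.58 for ASPWEDRAFT_104176, -1.35 for ASPWEDRAFT_101237 and -0.55 for ASPWEDRAFT_101893 (edgeR adjusted p = 3.78e-06, 0.00235 and 0.0495). The last of these passed narrowly: it was lost with only the compared groups in the fit (-0.61, edgeR adjusted p = 0.15) and without either the second or the third NaCl library or any 1 of the 3 NaCl + sorbitol libraries, and without the third NaCl library it was -0.31. Against sorbitol 0 of 3 passed in edgeR, where 7.39% of all genes fell, 1 had an unadjusted p under 0.05 and 0 passed in DESeq2. ASPWEDRAFT_104176 was the nearest of them at -0.98 (edgeR adjusted p = 0.0601).

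NaCl and sorbitol given singly were also set against each other. In ′c *gfdB* ASPWEDRAFT_104176 was higher with NaCl by 1.59 (SE 0.31, edgeR adjusted p = 0.00122), 1 of 3 members against 19.8% of all genes. In CBS141173 the difference for this gene was -0.19 (95% interval -0.79 to 0.41, edgeR adjusted p = 0.648). No member passed there in edgeR, where 14.2% of all genes were higher with NaCl. ASPWEDRAFT_101237 was the 1 member with an unadjusted p under 0.05 in CBS141173, at 0.79 (edgeR adjusted p = 0.0697), and the 1 that passed in DESeq2.

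The response to the combination was also set against the sum of the separate log2 responses, a contrast that is 0 when fold changes multiply. It was negative for 3 of 3 members in CBS141173, where 25.7% of all genes were called below 0, and for 3 of 3 in ′c *gfdB*, where 22.2% were. For ASPWEDRAFT_104176 the contrast was -6.22 (SE 0.45, edgeR adjusted p = 1.15e-09) in CBS141173 and -2.95 (SE 0.45, edgeR adjusted p = 3.37e-05) in ′c *gfdB*. For ASPWEDRAFT_101237 it was -2.20 and -1.23 (edgeR adjusted p = 0.000512 and 0.0391), and the second of these was lost when any of 8 libraries was left out, with an edgeR adjusted p of up to 0.101. For ASPWEDRAFT_101893 it was -1.18 and -1.11 (edgeR adjusted p = 0.00465 and 0.00916). With the combination in CBS141173, ASPWEDRAFT_104176 and ASPWEDRAFT_101237 stood at 0.36 and 0.41 above untreated, neither of which passed. The differences of ASPWEDRAFT_101893 from NaCl alone (-0.11) and from sorbitol alone (0.04) did not pass either, which does not show that the levels were equal.

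Ordered by group mean, the 3 genes placed the groups differently. ASPWEDRAFT_104176 was highest in CBS141173 sorbitol (34.5 RPKM), then CBS141173 NaCl (28.05), ′c *gfdB* NaCl (12.3), ′c *gfdB* sorbitol (3.88), CBS141173 NaCl + sorbitol (3.75), untreated ′c *gfdB* (3.02), untreated CBS141173 (2.95) and ′c *gfdB* NaCl + sorbitol (1.81 RPKM). The first pair overlapped, as did each neighbouring pair from ′c *gfdB* sorbitol to untreated CBS141173. The libraries separated on both sides of the ′c *gfdB* NaCl group and above the last group.

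ASPWEDRAFT_101893 was highest in CBS141173 with NaCl, sorbitol and both (1340, 1299 and 1195 RPKM), then in ′c *gfdB* with NaCl, sorbitol and both (1136, 832 and 713 RPKM) and lowest in the untreated strains (566 RPKM in ′c *gfdB* and 557 RPKM in CBS141173). Neighbours overlapped throughout except between the ′c *gfdB* combination and untreated ′c *gfdB*. ASPWEDRAFT_101237 led in both NaCl groups (25.7 RPKM in CBS141173 and 21.4 RPKM in ′c *gfdB*), followed by CBS141173 sorbitol (16.2), untreated ′c *gfdB* (13.2), ′c *gfdB* sorbitol (12.1), CBS141173 NaCl + sorbitol (10.1), untreated CBS141173 (7.69) and ′c *gfdB* NaCl + sorbitol (7.67 RPKM). For this gene all neighbouring groups overlapped.

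Among the CBS141173 sorbitol libraries the third was highest for each of the 3 genes. Among the ′c *gfdB* NaCl libraries the first was the highest for ASPWEDRAFT_104176 (19.3 RPKM) and the lowest for ASPWEDRAFT_101893 (879 RPKM) and ASPWEDRAFT_101237 (17.2 RPKM). Over the 8 group means of log2 CPM, Pearson's r was 0.76 between ASPWEDRAFT_101237 and ASPWEDRAFT_104176, 0.71 between ASPWEDRAFT_101893 and ASPWEDRAFT_104176 and 0.60 between ASPWEDRAFT_101237 and ASPWEDRAFT_101893. These values describe the same 24 libraries, whose groups share treatments.

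Among all tested genes, the patterns most like that of ASPWEDRAFT_104176 over the 8 group means were those of ASPWEDRAFT_747343 (r = 0.99) and ASPWEDRAFT_112184 (r = 0.98). Both were scarce, with highest group means of 4.53 and 0.856 RPKM. For ASPWEDRAFT_101893 they were ASPWEDRAFT_109814 (r = 0.99) and ASPWEDRAFT_24518 (r = 0.96), which went from 7.02 to 94.4 RPKM and from 39.4 to 467 RPKM between the untreated and the highest CBS141173 group. For ASPWEDRAFT_101237 they were ASPWEDRAFT_452655 (r = 0.99) and ASPWEDRAFT_189230 (r = 0.98), with highest group means of 26.5 and 3.09 RPKM. The files do not name these genes, and each was picked as the closest of 11093.

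The 3 genes were next placed among the whole list of 15 co-orthologues. The summed level of the 15 was 1272 ± 367 RPKM in untreated CBS141173 and 1179 ± 6.18 RPKM in untreated ′c *gfdB* (SD, n = 3). With sorbitol, NaCl and the combination it was 2286 ± 575, 2078 ± 365 and 2179 ± 261 RPKM in CBS141173 and 1521 ± 102.7, 1654 ± 442 and 1437 ± 54.5 RPKM in ′c *gfdB*. These sums were not tested. ASPWEDRAFT_101893 supplied the largest share of that sum in every group. Its share was 43.9% ± 2.44 in untreated CBS141173 and 64.6% ± 1.06 with NaCl, and in ′c *gfdB* it was 48% ± 3.96 untreated and 69.3% ± 4.20 with NaCl. ASPWEDRAFT_104176 supplied 0.242% ± 0.052 of the sum in untreated CBS141173 and 1.55% ± 0.634 with sorbitol, and the share of ASPWEDRAFT_101237 lay between 0.467% and 1.33% in the group means. Of the other 12 genes, ASPWEDRAFT_147345 and ASPWEDRAFT_32407 came next, with group means from 240 to 432 and from 164.2 to 474 RPKM, and neither rose with a single osmolyte in either strain.

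Of the other 12 co-orthologues 9 passed the filter on low counts. In CBS141173 5 of these 9 rose with sorbitol, 4 with NaCl and 5 with the combination, where 22.1%, 24.9% and 15% of all genes rose, with median log2 changes of 1.46, 0.99 and 0.95 where the medians of all genes were -0.03, -0.06 and -0.01. The sorbitol count was 3 without the third sorbitol library, and the combination count was 3 without the second or the third combination library or the third untreated one. In ′c *gfdB* 4, 2 and 2 of the 9 rose, where 17.3%, 25.7% and 16.1% of all genes rose, with medians of 0.61, 0.58 and 0.57 against 0.02, 0.08 and -0.01. The NaCl count lay near the share of all genes. In this strain the sorbitol count was 2 without the second sorbitol library or the second or the third untreated one, the NaCl count was 4 without the first NaCl library, and the combination count was 0 or 1 without any 1 of the 6 libraries compared. None of the 9 fell in edgeR in these 6 comparisons, and the count was also 0 at an unadjusted p under 0.05 and in DESeq2, though 1 fell with NaCl in ′c *gfdB* without the second NaCl library. Of all genes tested, 19.7%, 27% and 16% fell in CBS141173 and 19.5%, 19.8% and 17.5% in ′c *gfdB* with sorbitol, NaCl and the combination.

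Members of the family fell into different patterns. ASPWEDRAFT_108056 resembled ASPWEDRAFT_104176, rising with each single osmolyte in CBS141173 (1.90 with sorbitol and 2.5 with NaCl) and giving 0.46 with the combination. Over the group means it had r = 0.94 with ASPWEDRAFT_104176, the highest of any of the tested co-orthologues. Unlike ASPWEDRAFT_104176 it also rose with sorbitol in ′c *gfdB*, by 1.25 (SE 0.30, edgeR adjusted p = 0.00318). ASPWEDRAFT_22248, a scarce gene with at most 3.39 RPKM in a group mean, rose with NaCl by 3.17 in CBS141173 and by 3.37 in ′c *gfdB* and with sorbitol by 1.46 and 1.84. Its untreated values rest on 4 to 9 reads per library. ASPWEDRAFT_37490 rose with the combination in both strains (1.25 and 0.89) and gave -0.38 and -0.46 with NaCl. Its combination call in ′c *gfdB* was lost without the second combination library or the second or the third untreated one.

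**Figure D3:**
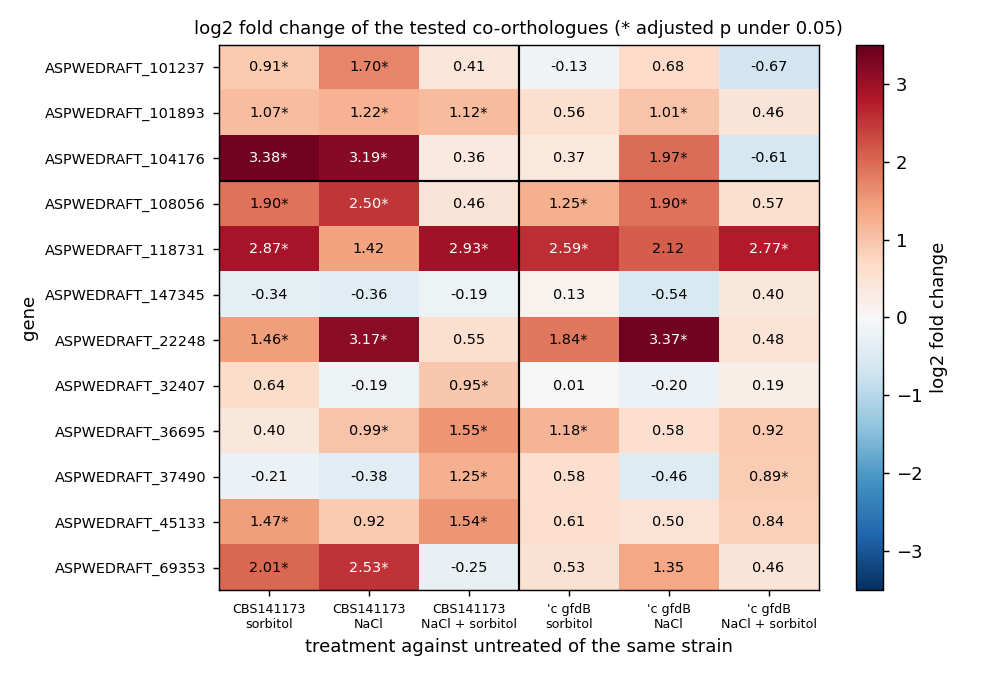
log2 fold change of each tested co-orthologue (rows, the 3 genes described here above the line) with each treatment against untreated (columns, CBS141173 left and ′c *gfdB* right), with an asterisk for an adjusted p under 0.05. ASPWEDRAFT_104176 has the largest sorbitol value in CBS141173 (3.38) and one of the smaller ones in ′c *gfdB* (0.37).

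Between the strains 3 of the 9 other co-orthologues were lower in ′c *gfdB* with sorbitol and 1 was higher (14.7% of all genes were higher), 1 was lower with NaCl and 1 with the combination. Of all genes tested, 21.5%, 9.28% and 8.64% were lower in ′c *gfdB* with sorbitol, NaCl and the combination. The NaCl and combination counts lay near these shares. The count of 3 was 1 without the third CBS141173 sorbitol library, without the second or the third ′c *gfdB* sorbitol library and with only the groups compared in the fit. The count of 1 higher became 2 without the first CBS141173 sorbitol library, and the count of 1 lower with the combination became 0 without the second or the third CBS141173 or the first or the third ′c *gfdB* library of that treatment. No sorbitol interaction of these 9 passed in edgeR, and 0 had an unadjusted p under 0.05. Among the 12 tested co-orthologues ASPWEDRAFT_104176 was therefore the 1 whose sorbitol response was called different between the strains. That the others' responses were alike does not follow from this.

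The other genes of glycerol metabolism were read in the same way, 19 of 22 having passed the filter. In CBS141173 9 rose and 1 fell with sorbitol, 10 rose and 1 fell with NaCl, and 6 rose and 0 fell with the combination. Of all genes, 22.1%, 24.9% and 15% rose and 19.7%, 27% and 16% fell in these comparisons. In ′c *gfdB* 10 rose and 3 fell, 8 rose and 1 fell, and 5 rose and 3 fell, where 17.3%, 25.7% and 16.1% of all genes rose and 19.5%, 19.8% and 17.5% fell. The gene for glycerol 3-phosphate dehydrogenase GfdA (ASPWEDRAFT_104967), which serves the other route to glycerol, rose with sorbitol in CBS141173 from 96.4 ± 8.50 to 913 ± 494 RPKM and in ′c *gfdB* from 142 ± 16.0 to 291 ± 4.78 RPKM (SD, n = 3). Its sorbitol interaction was -2.05 (SE 0.40, edgeR adjusted p = 0.00418), beside -3.01 for ASPWEDRAFT_104176. Its combination minus the sum of both responses was -6.08 in CBS141173, beside -6.22 for ASPWEDRAFT_104176. Of the 19 tested genes, 4 had a lower sorbitol response in ′c *gfdB*, the GfdA gene among them, and 1 had a higher one. Of all genes, 5.82% had a lower and 4.39% a higher sorbitol response in that strain.

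In *A. nidulans* the 3 genes of reference were measured in the same study. There THS30 is the reference strain and Δ*gfdB* the *gfdB* deletion mutant, grown for 36 h and 38 h before the same treatments. The deleted *gfdB* (AN6792) had 0 to 2 reads in the 12 Δ*gfdB* libraries and 71 to 5194 in the 12 THS30 libraries. AN11030 had at most 6 reads in any library and was not tested, AN1274 (named gcy1 in RefSeq) lay between 78.5 and 169.3 RPKM, and AN7193 (akr1) between 40.0 and 276 RPKM.

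AN1274 rose with NaCl in THS30 by 0.79 (SE 0.08) and in Δ*gfdB* by 0.68 (SE 0.08), with edgeR adjusted p of 6.52e-09 and 8.37e-08, where 33.8% and 33.9% of the 9498 tested genes rose. Its changes with sorbitol were 0.16 and -0.03, and with the combination -0.01 and -0.01, none of which passed. AN7193 moved in both directions. It rose with NaCl by 1.2 in THS30 and by 1.14 in Δ*gfdB*, and fell with sorbitol, with -0.92 and -0.77, and with NaCl + sorbitol, with -0.75 and -0.70. In THS30 34.5% and 33.1% of all genes fell with sorbitol and with the combination, and in Δ*gfdB* 36.5% and 34.5%. The edgeR adjusted p of these 6 changes were between 1.64e-07 and 0.000386. Sorbitol thus accompanied lower AN7193 in both *A. nidulans* strains and higher levels of ASPWEDRAFT_101237, ASPWEDRAFT_101893 and ASPWEDRAFT_104176 in *A. wentii* CBS141173. The call of ASPWEDRAFT_101237 there was not stable. In edgeR, AN1274 did not pass with sorbitol in either *A. nidulans* strain, and no member passed with it in ′c *gfdB*. The species were fitted separately, and the difference between the species in the sorbitol response was not tested.

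**Figure D4:**
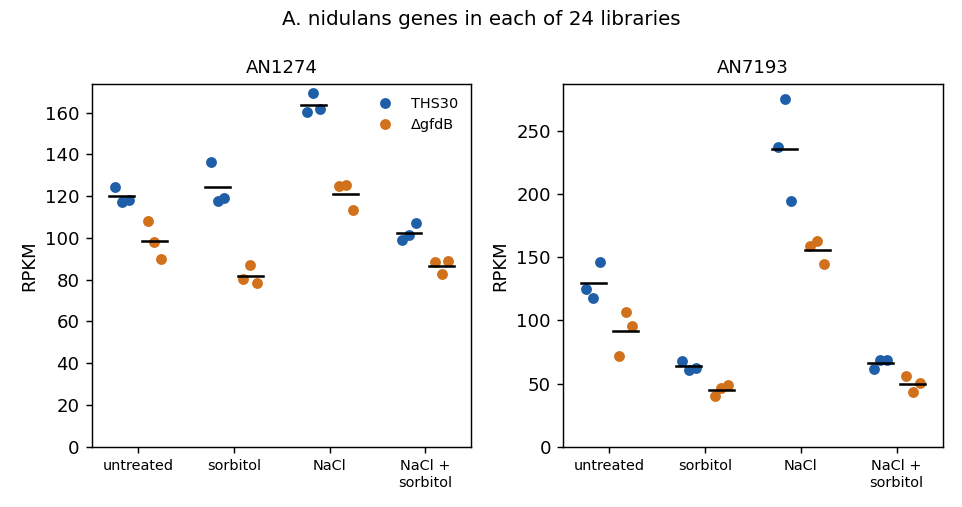
RPKM of AN1274 and AN7193 in each *A. nidulans* library by treatment, with THS30 in blue and Δ*gfdB* in orange; points are libraries and bars group means of 3. AN7193 is highest with NaCl (up to 276 RPKM) and lowest in the 2 treatments that contain sorbitol.

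Between the *A. nidulans* strains the differences of both genes were negative in each condition (Δ*gfdB* minus THS30). For AN1274 the difference was -0.43 with sorbitol (edgeR adjusted p = 0.00034), -0.34 with NaCl (edgeR adjusted p = 0.00465) and -0.23 untreated (edgeR adjusted p = 0.0468), where 18.9%, 5.79% and 7.02% of all genes were lower. For AN7193 it was -0.51 with NaCl (edgeR adjusted p = 0.0197) and -0.45 untreated (edgeR adjusted p = 0.037). AN1274 with the combination (-0.23) and AN7193 with sorbitol (-0.31) and with the combination (-0.40) did not pass (6.44% of all genes were lower with the combination). The untreated differences and that of AN7193 with NaCl were lost when single libraries were left out.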

How the data were processed

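RNA libraries of 24 *A. wentii* and 24 *A. nidulans* cultures were sequenced as single ends. The authors aligned the reads with HISAT2 2.1.0 to genomes from FungiDB and counted them per gene with featureCounts; per the file headers, the deposited table holds read counts, gene lengths and RPKM for each library. The deposited RPKM equalled the count divided by gene length and library total, so it carries no correction for composition. The submitters' processing notes name DESeq2 1.24.0. How strand and multiply matching reads were treated is not given in the sources used here. Doses follow the treatment protocol and the paper; the series record states the molarities the other way round. The genotype label of 11 of the 12 Δ*gfdB* libraries names another gene, and the titles were followed.

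Here the deposited counts were tested with edgeR 4.0.16 in R 4.3.3 (TMM factors, filterByExpr, quasi-likelihood F-tests, 1 model of 8 groups per species, no replicate block), with 21 contrasts in *A. wentii* and 10 in *A. nidulans*. SE is the absolute log2 fold change over the root of F, and intervals are 95%. A gene was called at an adjusted p under 0.05; a further limit of 2-fold was computed. The procedure was tested on simulated data. Levels are RPKM with SD over 3 libraries. Pearson r over 8 group means used log2 CPM with a prior count of 2, and the 2 closest genes per member were named. The other named genes are the study's glycerol metabolism list and the *A. nidulans* orthologues. The members and lists were chosen with earlier results of these data known. Alternatives were other size factors (RLE, or library totals alone), no filter, only the groups compared, a replicate block, DESeq2 1.42.0, RPKM rescaled by TMM and leaving out each library. No *A. wentii* sequence or annotation was used.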

Additional observations from a re-analysis of the deposited data

Results flagged for a closer look

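The sorbitol response of ASPWEDRAFT_104176 is listed because it differed between the *A. wentii* strains in a test of the difference itself, the interaction being -3.01 on the log2 scale (′c *gfdB* minus CBS141173, edgeR adjusted p = 0.000392). Its CBS141173 sorbitol libraries had 20.2, 38.1 and 45.2 RPKM and its ′c *gfdB* sorbitol libraries 3.11, 3.84 and 4.70 RPKM. The CBS141173 sorbitol group is 1 of the 2 groups whose replicates agreed least, and its part in the result was measured by leaving out each of these libraries: the interaction passed each time.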

How the results depend on the processing

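Of the 63 member contrasts 25 passed, and 21 of these passed under every alternative. Over all tests, 958 of 1053 alternative values kept their direction and side of the threshold, and of the 28 that changed sign 0 belonged to a called result. The cause of the changes was not tested. Fits with fewer groups or libraries pool less information on spread, and the part this had in the changes was not tested either.

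Among *A. wentii* results that lost the call, ASPWEDRAFT_101237 with sorbitol in CBS141173 was 0.96 with only the groups compared. ASPWEDRAFT_104176 between strains with NaCl was -1.16 there, and ASPWEDRAFT_101893 with the combination against NaCl in ′c *gfdB* was -0.61. Results gained under that setting were, for ASPWEDRAFT_101237, the ′c *gfdB* combination against sorbitol (-0.61) and against untreated (-0.66) and the untreated strain difference (0.81). For ASPWEDRAFT_101893 they were the ′c *gfdB* changes with sorbitol (0.58) and the combination (0.46) and the strain difference with the combination (-0.59). For ASPWEDRAFT_104176 they were the ′c *gfdB* combination against sorbitol (-1.06) and the strain difference with the combination (-0.89). The other co-orthologues lower in ′c *gfdB* then numbered 1 untreated, 1 with sorbitol, 0 with NaCl and 2 with the combination, those higher 1, 0 and 1 (untreated, sorbitol, combination), and 5 rose with the combination in ′c *gfdB*.

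A fit without the 2 groups of poorest replicate agreement was chosen after seeing the data. It gained ASPWEDRAFT_101237 with the combination in ′c *gfdB* (-0.71) and between untreated strains (0.89), ASPWEDRAFT_101893 with sorbitol in ′c *gfdB* (0.60) and between strains with the combination (-0.53), and ASPWEDRAFT_104176 with the combination in ′c *gfdB* against sorbitol (-1.07) and untreated (-0.65) and between strains with the combination (-0.83). The counts of other co-orthologues became 2 lower between strains and 4 risen in ′c *gfdB* with the combination, and 1 higher between untreated strains.

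DESeq2 gained ASPWEDRAFT_101237 between untreated strains (0.86) and for NaCl against sorbitol in CBS141173 (0.83), ASPWEDRAFT_101893 with sorbitol in ′c *gfdB* (0.59), the NaCl interaction of ASPWEDRAFT_104176 (-1.29) and AN1274 with sorbitol in THS30 (0.20). The other co-orthologues higher in ′c *gfdB* with sorbitol numbered 2 in DESeq2 and 2 with no filter, against 1 in the main fit. DESeq2 turned the sign of AN1274 with sorbitol (0.010) and the combination (0.064) in Δ*gfdB* and with the combination in THS30 (0.043). RLE factors gave 0.60 for ASPWEDRAFT_101893 with sorbitol in ′c *gfdB*.

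Library totals without TMM moved the median of all *A. wentii* genes by between -0.20 and 0.15. They gained ASPWEDRAFT_101893 with sorbitol in ′c *gfdB* (0.56) and between strains with sorbitol (-0.64) and the combination (-0.74), AN1274 with sorbitol in Δ*gfdB* (-0.27) and the combination in THS30 (-0.23), and AN7193 between strains with sorbitol (-0.49), and left 1 other co-orthologue rising with the combination in ′c *gfdB*. ASPWEDRAFT_101893 with the combination against sorbitol in CBS141173 changed sign with library totals (-0.12), no filter (-0.072) and only the groups compared (-0.033). Rescaled by TMM, the ′c *gfdB* combination means were 793 RPKM for ASPWEDRAFT_101893 and 2.01 RPKM for ASPWEDRAFT_104176.

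Replicate numbers did not pair the samples: same-numbered *A. wentii* libraries had a mean r of -0.03 in their deviations, with 11 of 84 pairs over 0.1. With the replicate block ASPWEDRAFT_101237 non-additivity in ′c *gfdB* (-1.21), ASPWEDRAFT_101893 with the combination against NaCl in ′c *gfdB* (-0.56) and AN1274 between untreated strains (-0.23) lost the call, and no other call changed.

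Leaving out single libraries, the results that changed ranged as follows. For ASPWEDRAFT_101237 the ranges were 0.52 to 1.19 (sorbitol, CBS141173), -0.25 to 0.15 (sorbitol, ′c *gfdB*), 0.51 to 0.89 (NaCl, ′c *gfdB*), 0.51 to 1.18 and 0.64 to 1.01 (NaCl against sorbitol in CBS141173 and ′c *gfdB*), -1.51 to -1.05 (non-additivity, ′c *gfdB*), and between strains -0.49 to 0.18 (sorbitol), -0.38 to 0.014 (NaCl) and -0.44 to 0.033 (combination). For ASPWEDRAFT_101893 they were -0.20 to 0.020 and -0.047 to 0.15 (combination against NaCl and sorbitol, CBS141173), -0.77 to -0.31 (combination against NaCl, ′c *gfdB*), 0.20 to 0.67 (NaCl against sorbitol, ′c *gfdB*), -0.39 to 0.076 and -0.14 to 0.24 (strains, NaCl and untreated) and -0.46 to 0.0094 (NaCl interaction). For ASPWEDRAFT_104176 they were -0.44 to 0.023 (NaCl against sorbitol, CBS141173), -0.032 to 0.23 (untreated strains) and -1.57 to -0.95 (NaCl interaction). AN1274 gave -0.070 to 0.042 (combination) and -0.095 to 0.023 (sorbitol) in Δ*gfdB*, -0.055 to 0.023 and 0.091 to 0.22 in THS30, and -0.28 to -0.17 between untreated strains; AN7193 gave -0.65 to -0.37 (NaCl) and -0.61 to -0.29 (untreated) between strains.

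The count of other co-orthologues that rose ranged from 3 to 6 (sorbitol) and 3 to 5 (combination) in CBS141173 and from 2 to 4 (sorbitol), 2 to 4 (NaCl) and 0 to 1 (combination) in ′c *gfdB*, where 0 to 1 fell with NaCl. Between strains 1 to 3 were lower and 1 to 2 higher with sorbitol, and 0 to 1 lower with the combination. In ′c *gfdB* the combination count, 2 with all libraries, was lower whichever of the 6 libraries was left out. The sorbitol count there, 4 with all libraries, fell to 2 without some of them. Among ASPWEDRAFT_101237, ASPWEDRAFT_101893 and ASPWEDRAFT_104176, depth limited the last most, at 19 to 23 reads in the ′c *gfdB* combination libraries.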
